A study of Mus musculus with 6 samples.

Results

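The disease-associated microglia genes described here were 10 genes, Spp1, Gpnmb, Itgax, Clec7a, Cst7, Lgals3, Igf1, Ank, Dkk2 and Fabp5, measured on gene expression arrays of sorted mouse microglia. Every noncontrol probe whose transcript accession mapped to one of these symbols was a member, which gave 12 probes for the 10 genes, among 23462 named genes tested in all. The microglia came from young (3-month-old) mice on the C57BL/6 background and were sorted as live CD45low CD11b+ Cx3cr1+ cells after enrichment on Percoll, with several mice pooled in each sample by the study's methods, while the labels speak of 3 mice per genotype. There were 3 samples of Bhlhe41 dTomato-Cre/+ mice (B41HET) and 3 of Bhlhe41 dTomato-Cre/dTomato-Cre mice (B41KO). The dTomato-Cre allele puts a dTomato and Cre cassette ahead of the Bhlhe41 start codon, so that the reporter is made and the Bhlhe41 protein is not. The B41HET controls therefore carry 1 such allele as well, and no wild-type, aged, demyelinated or diseased sample was among these arrays. The comparison asked how the loss of Bhlhe41, a basic helix-loop-helix repressor found in microglia, changed the microglial transcriptome, and here it was read for the disease-associated genes in otherwise healthy young brains.

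Disease-associated microglia are a state that microglia take up around amyloid plaques, dying neurons and damaged myelin. Cells in this state lower homeostatic genes such as P2ry12 and Tmem119 and, in part through the lipid receptor TREM2, raise genes for lipid handling, lysosomal degradation, adhesion and secreted growth factors. The 10 genes are among those used to recognise the state, and most are low in resting adult microglia. Their products fall into secreted factors (Spp1, Igf1, Dkk2 and Lgals3), proteins of the cell surface and of vesicle membranes (Clec7a, Itgax, Gpnmb and Ank), a protease inhibitor (Cst7) and a lipid carrier (Fabp5).

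Of the 10 genes, Lgals3 was lower and Ank was higher in B41KO than in B41HET microglia, and the other 8 genes did not pass the test. Signals are given as log2 of the scanner signal after quantile normalization over the 6 arrays, and a fold change is B41KO minus B41HET on that log2 scale. A probe was called when limma gave an adjusted p of 0.05 or less over all 56601 probes tested and the log2 fold change was at least 0.5 in size. On the brightest probe of each gene, 1 of 10 members was called higher, where 1.44% of all named genes were called higher, and 1 of 10 was called lower, where 4.01% of all named genes were called lower. Over the 12 member probes, 1 was called higher and 2 were called lower, against 1.72% and 3.34% of all probes tested. In 6 of the 12 member probes the 3 values of B41KO lay wholly above or wholly below the 3 of B41HET, against 29.7% of all probes. The median log2 fold change of the 10 members was -0.12 beside 0.01 over all named genes. When arrays were scaled by their 75th percentile and not by quantiles, the members' median turned to 0.13, while the median of all probes moved from 0.02 to 0.13.

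Detection divided the members. A probe counts as above background where the scanner software marked it well above background on most of its spots. Lgals3, Ank, Cst7, Clec7a and Itgax were above background on all 6 arrays, Igf1 was above background on 5 of 6, and Spp1, Gpnmb, Dkk2 and Fabp5 were not well above background on any array. The median of the 6 members measured on some array was -0.06. Signals of different probes depend on the probe, so levels were compared between genotypes within a probe and not between genes.

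**Figure D1:**
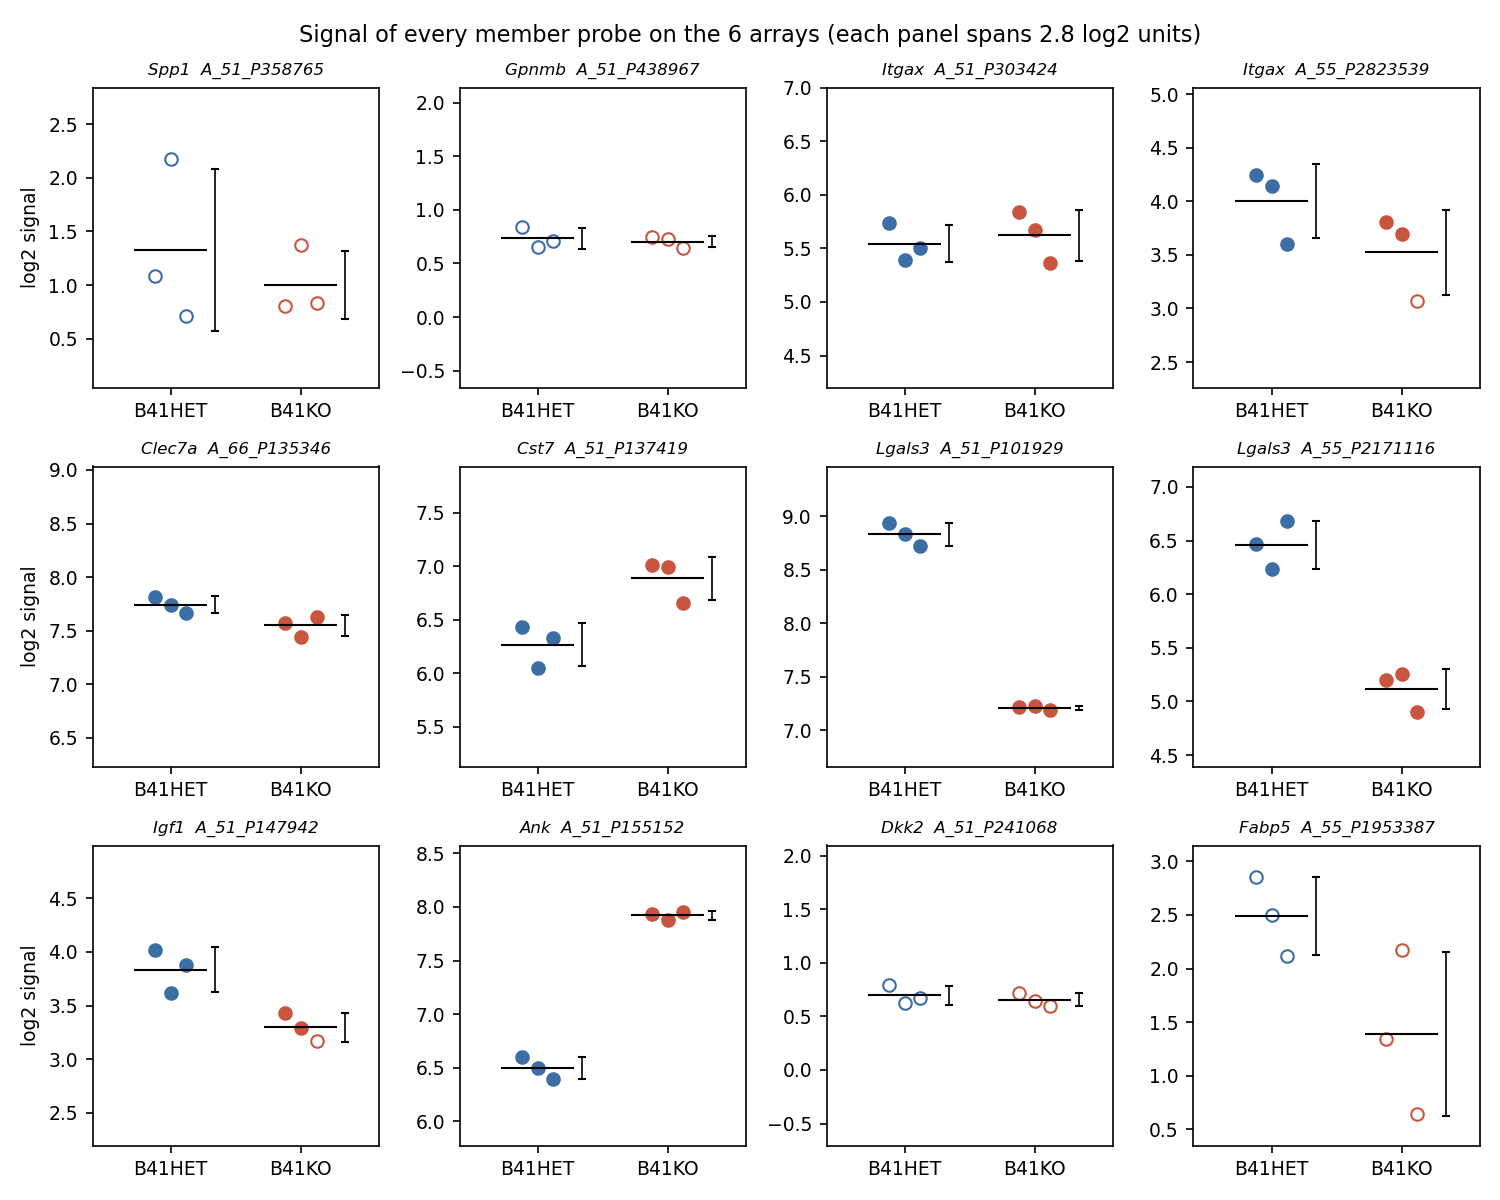
Log2 signal of each of the 12 member probes on the 6 arrays, with B41HET in blue and B41KO in red. Horizontal lines are genotype means and bars are SD (n = 3). Filled circles are arrays where the probe was well above background and open circles are arrays where it was not. Each panel spans the same range on its own scale. Lgals3 (both probes) and Ank show genotypes far apart, Cst7 and Igf1 show narrow gaps, and the open circles of Spp1, Gpnmb, Dkk2 and Fabp5 lie near the floor of the array.

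Lgals3 encodes galectin-3, a carbohydrate-binding lectin that is secreted and also acts at damaged lysosomes, and that macrophages and monocytes express as well. It had 2 probes. On the brighter one, A_51_P101929, the signals were 8.94, 8.83 and 8.72 in B41HET and 7.21, 7.23 and 7.19 in B41KO. Every B41KO sample lay below every B41HET sample, with 1.49 log2 units between the nearest samples. Lgals3 fell by 1.62 on the log2 scale (SE 0.08, 95% confidence interval -1.82 to -1.42, limma adjusted p = 0.00157), a signal 3.07-fold lower in B41KO. A larger absolute fold change was found for 0.489% of the probes tested. This probe was printed 10 times on the array, and the lowest of the 30 spots in B41HET (8.46) was above the highest of the 29 spots kept in B41KO (7.40). The SD between spots of the same array was 0.05 to 0.13.

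The dimmer Lgals3 probe, A_55_P2171116, was designed on another transcript of the gene. Its signals were 6.47, 6.24 and 6.68 in B41HET and 5.20, 5.25 and 4.90 in B41KO, again without overlap. It fell by 1.34 (SE 0.15, limma adjusted p = 0.0115), in the same direction as the brighter probe. With normexp background correction it fell by 0.63 and was still called. This call was lost, at an adjusted p of 0.0525, when sample 1 of B41HET was left out, and at 0.109 with the slide row as a block.

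The 6 arrays lay on 1 slide, with the 3 B41HET samples and B41KO sample 1 in its first row and the other two B41KO samples in its second row. Within the first row, B41KO sample 1 differed from the mean of B41HET by -1.62 and -1.27 on the Lgals3 probes and by 1.44 on the Ank probe. With the row as a block the fit compares B41KO sample 1 alone with the 3 B41HET samples, since the second row holds only B41KO, and it takes its spread from the B41HET samples and the other two B41KO samples. The single B41KO sample is assumed to vary like the others. In that fit the adjusted p was 0.0272 for Lgals3 and 0.032 for Ank on their brightest probes.

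Ank encodes a membrane protein of transport vesicles and the cell surface that takes part in the release of ATP and citrate, and so in pyrophosphate outside the cell. The signals of its probe, A_51_P155152, were 6.60, 6.50 and 6.39 in B41HET and 7.94, 7.88 and 7.95 in B41KO. All 3 B41KO samples lay above all 3 B41HET samples, with a gap of 1.28. Ank rose by 1.42 on the log2 scale (SE 0.08, 95% confidence interval 1.22 to 1.62, limma adjusted p = 0.00199), a signal 2.68-fold higher in B41KO. A larger absolute fold change was found for 0.795% of the probes tested. Leaving out any single sample kept the fold change between 1.37 and 1.47 and the gene called.

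The windows just ahead of the annotated starts of Lgals3 and Ank are shown because these members were called, in opposite directions. The study gives the E-box CACGTG as the motif of Bhlhe41, and neither window held it. Both windows are taken from RefSeq on GRCm38.p6, 5′ to 3′ on the strand of the gene. Every CANNTG, a wider pattern that includes CACGTG, is in capitals. The Lgals3 window is chr14:47373610-47373859 and the Ank window is chr15:27466427-27466676, both on the plus strand.
Lgals3: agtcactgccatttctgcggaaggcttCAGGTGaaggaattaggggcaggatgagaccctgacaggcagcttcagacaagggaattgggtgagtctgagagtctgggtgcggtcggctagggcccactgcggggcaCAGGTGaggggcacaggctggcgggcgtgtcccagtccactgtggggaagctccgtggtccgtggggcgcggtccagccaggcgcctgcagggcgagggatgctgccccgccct
Ank: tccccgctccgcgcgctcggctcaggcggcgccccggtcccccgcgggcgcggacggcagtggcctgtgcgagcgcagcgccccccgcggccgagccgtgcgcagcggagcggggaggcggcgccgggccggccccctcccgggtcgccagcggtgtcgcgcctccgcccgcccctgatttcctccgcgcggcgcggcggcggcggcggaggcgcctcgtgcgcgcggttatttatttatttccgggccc
The Lgals3 window held CAGGTG with its first base at position -223 and again at -114, counted from the start. The Ank window held no CANNTG.

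Cst7 encodes cystatin F, an inhibitor of cysteine proteases in the endosomes and lysosomes of immune cells. The signals of its probe, A_51_P137419, were 6.43, 6.05 and 6.33 in B41HET and 7.01, 6.99 and 6.66 in B41KO. The B41KO samples lay above the B41HET samples, with a narrow gap of 0.23 between the nearest. The log2 fold change was 0.62 (SE 0.15, 95% confidence interval 0.25 to 0.99), and it did not pass the test (limma adjusted p = 0.0717). It passed at 0.0352 when probes above background on fewer than 3 arrays were left out before the adjustment, and at 0.0419 with trend and robust variance in limma. It did not pass with any sample left out (0.0779 to 0.179) or with the slide row as a block (0.215), and with normexp correction the fold change was 0.36, under the fold threshold. Its window, chr2:150570165-150570414 on the plus strand, is printed in the same way, as the member whose samples kept apart in the direction of Ank.
Cst7: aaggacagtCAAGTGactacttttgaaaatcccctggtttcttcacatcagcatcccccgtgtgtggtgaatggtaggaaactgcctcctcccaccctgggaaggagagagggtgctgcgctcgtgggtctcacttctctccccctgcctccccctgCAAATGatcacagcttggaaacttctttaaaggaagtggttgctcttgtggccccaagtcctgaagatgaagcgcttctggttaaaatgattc
It held CAAGTG at -241 and CAAATG at -93.

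The search covered CACGTG, the canonical E-box, together with CANNTG, which includes it, and TCATGTG, the M-box bound by MITF and TFE factors, on both strands from 250 bases before to 50 bases after each start. The table held 11 such windows for 9 of the members and none for Fabp5. CACGTG was in 0 of the 11 windows, and 7.15% of all 32851 windows held it. CANNTG was in 9 of the 11 windows, and 72.3% of all windows held it. TCATGTG was in 0 of the 11 windows, beside 3.77% of all. TGANTCA, a wider pattern that includes the AP-1 site TGACTCA or TGAGTCA, was in 4 of the 11 windows, beside 7.81% of all. The match was TGACTCA in the window of Gpnmb and TGAGTCA in that of Itgax. In the windows of Cst7 and Igf1 it was TGATTCA and TGAATCA, which fit the wider pattern only. The AP-1 site alone was not counted over all windows. GAGGAAG, a core bound by PU.1, was in 2 windows, those of Spp1 and Igf1, beside 13.6% of all. These matches describe the letters in the windows alone.

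Igf1 encodes insulin-like growth factor 1, which microglia secrete during development and myelin repair. The signals of its probe, A_51_P147942, were 4.02, 3.61 and 3.88 in B41HET and 3.43, 3.29 and 3.17 in B41KO, the last of them not well above background. The B41KO samples lay below the B41HET samples with a gap of 0.18. The log2 fold change was -0.54 (SE 0.13, 95% confidence interval -0.87 to -0.21), and it did not pass the test (limma adjusted p = 0.0765). It passed at 0.04 when dim probes were left out before the adjustment, and the value shrank to -0.07 with normexp background correction. Igf1 was therefore a dim probe whose size of change depended on how background was treated.

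Clec7a encodes Dectin-1, a receptor for fungal glucans that signals through SYK. The signals of its probe, A_66_P135346, were 7.82, 7.74 and 7.66 in B41HET and 7.57, 7.45 and 7.63 in B41KO. The genotypes did not overlap, but only 0.03 separated B41HET sample 3 from B41KO sample 3. The log2 fold change was -0.19 (SE 0.08, 95% confidence interval -0.40 to 0.02, limma adjusted p = 0.254), which did not pass the test.

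Itgax encodes the integrin alpha chain CD11c, which marks dendritic cells as well as activated microglia. On its brighter probe, A_51_P303424, the signals were 5.74, 5.40 and 5.50 in B41HET and 5.84, 5.67 and 5.37 in B41KO, and the genotypes overlapped. The log2 fold change was 0.08 (SE 0.16, 95% confidence interval -0.30 to 0.46, limma adjusted p = 0.811). On the dimmer probe, A_55_P2823539, the signals were 4.25, 4.14 and 3.60 in B41HET and 3.80, 3.69 and 3.07 in B41KO, with the last not well above background. Its fold change was -0.48 (SE 0.26, 95% confidence interval -1.12 to 0.17, limma adjusted p = 0.348), of the other sign than on the brighter probe, and neither probe passed the test.

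Spp1 encodes osteopontin, a secreted ligand of integrins and CD44. Its probe, A_51_P358765, read 1.09, 2.17 and 0.71 in B41HET and 0.80, 1.37 and 0.83 in B41KO, none of them well above background. Gpnmb encodes a glycoprotein of lysosomes and the cell surface, and its probe, A_51_P438967, read 0.84, 0.65 and 0.71 in B41HET and 0.74, 0.73 and 0.64 in B41KO. Dkk2 encodes a secreted modulator of Wnt signalling, and its probe, A_51_P241068, read 0.79, 0.62 and 0.67 in B41HET and 0.72, 0.65 and 0.60 in B41KO. Fabp5 encodes a fatty acid binding protein of the cytoplasm, and its probe, A_55_P1953387, read 2.85, 2.50 and 2.12 in B41HET and 1.35, 2.18 and 0.65 in B41KO, where the genotypes overlapped. No fold change is given for these 4 genes, because both genotypes were at the background of the array. A probe reads the transcript it was designed on, and whether these would meet every transcript of their genes was not tested.

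**Figure D2:**
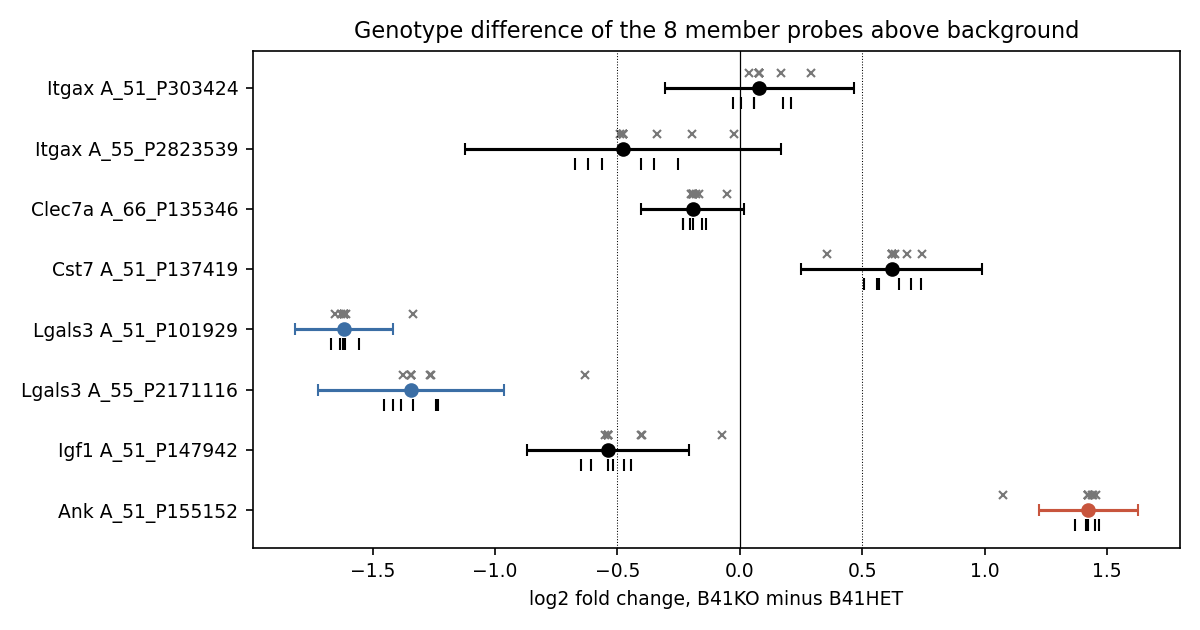
Log2 fold change (B41KO minus B41HET) of the 8 member probes above background on at least 1 array, with its 95% confidence interval from limma. Blue is called lower, red is called higher and black is not called, and dotted lines mark the fold threshold of 0.5. Ticks below each point are the values with 1 sample left out in turn and crosses above it are the values under the other settings. The intervals of Ank and both Lgals3 probes lie beyond the dotted lines, and those of Clec7a and Itgax include 0.

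Lgals3 is not particular to microglia, so markers of other myeloid cells of the brain and blood were read on the same arrays. Of 12 neutrophil markers, 9 were called lower in B41KO, with a median fold change of -2.35, and the log2 of their summed signal was 14.94 to 15.11 in B41HET and 12.61 to 12.70 in B41KO. The strongest of them were Ltf (-3.17, limma adjusted p = 0.00104), Ngp (-3.13, 0.000336) and Mmp9 (-3.00, 0.000282), and all 12 were above background on all arrays of both genotypes. Mmp8 (-0.61, limma adjusted p = 0.0535), Elane (-0.04, 0.917) and Mpo (0.39, 0.157) were not called, and every B41KO value of Mpo lay above every B41HET value. Of 10 monocyte markers, 3 were called lower, Plac8 (-2.68), Chil3 (-2.26) and Ly6c2 (-2.10), and the summed signal was 11.13 to 11.20 against 10.23 to 10.51. Plac8 held in 1 of the 6 fits with a sample left out, and Chil3 and Ly6c2 held in all 6. Of 10 border macrophage markers, 5 were called lower, F13a1 (-1.92), Cbr2 (-1.44), Ms4a7 (-1.10), Cd163 (-1.02) and Pf4 (-0.72), and the summed signal was 11.36 to 11.46 against 10.84 to 10.97. That count was 2 to 4 with a sample left out, lowest without sample 2 of B41HET, 2 with normexp correction and 1 (Cd163) with the slide row as a block. Lyve1 and Mrc1, the defining markers of border macrophages, were well above background on all 3 B41HET arrays and not on any B41KO array. Every B41KO value lay below every B41HET value, but neither gene was called (Lyve1 -1.80, limma adjusted p = 0.0974, and Mrc1 -1.26, 0.0745). Of 10 dendritic cell markers, 2 were called lower, Clec10a (-1.92) and Cd209a (-1.74), and the ranges of the summed signal overlapped, at 10.72 to 10.82 against 10.58 to 10.72. Cd209a held in 1 of the 6 fits with a sample left out, and its other probe had -0.12 (0.715). Xcr1 stayed at background on every array.

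The neutrophil, monocyte and border macrophage sums were lower in the same samples in which Lgals3 was lower, and their part in the fall of Lgals3 was not tested. A gate on CD45low Cx3cr1+ cells is meant to leave out neutrophils, which carry high CD45 and lack Cx3cr1. Its CD45 limit also bears on monocytes, border macrophages and dendritic cells, which carry more CD45 than microglia. The neutrophil markers were nonetheless above background on all arrays, and how many such cells passed the gate was not tested. In bulk samples such as these, fewer cells of a type and less RNA per cell cannot be told apart. The 10 microglia markers were above background on all arrays, with a summed signal of 17.26 to 17.39 in B41HET and 17.22 to 17.30 in B41KO, and 1 of them, Fcrls, was called lower. The Bhlhe41 transcript was not lower in B41KO, with fold changes of 0.38 (limma adjusted p = 0.33) and 0.33 (0.203) on its 2 probes, so it does not check the labels. The modified allele ends translation, and whether these probes read its transcript was not tested.

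**Figure D3:**
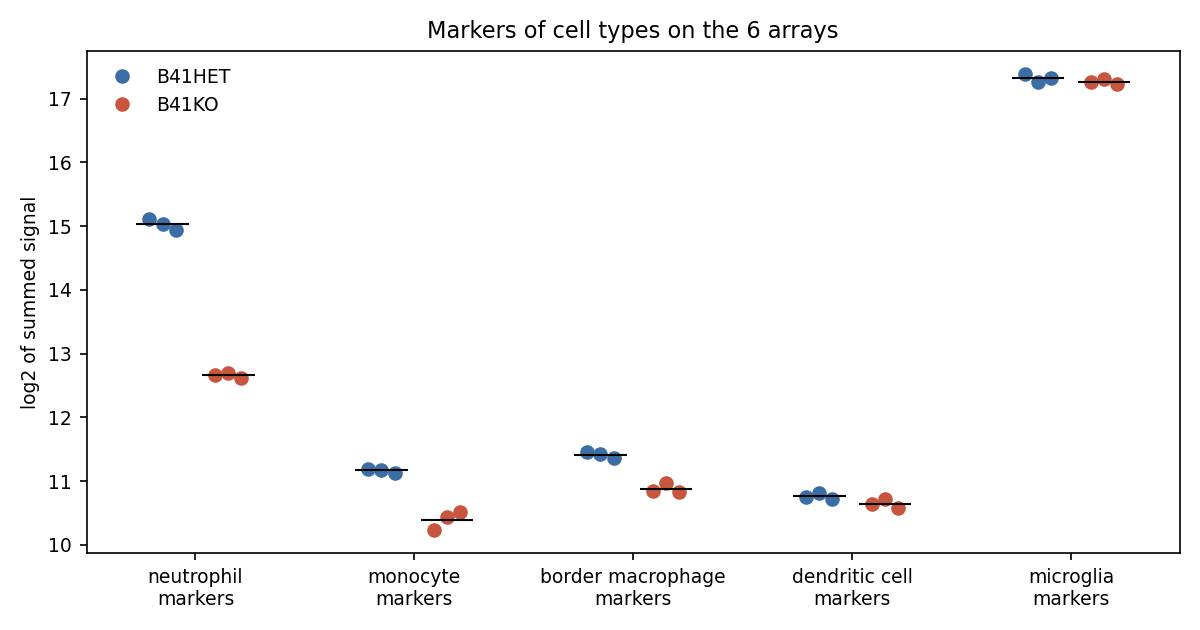
Log2 of the summed signal of the marker genes of 5 cell types on the 6 arrays, by genotype, with horizontal lines at the means (n = 3). The neutrophil sum lies between 14.94 and 15.11 in B41HET and between 12.61 and 12.70 in B41KO, while the ranges of the microglia sum overlap.

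The wider disease-associated programme was read from 32 other genes, all above background on all arrays. Of these, 1 was called higher and 4 were called lower in B41KO, and the median fold change was 0.08. The gene called higher was Cd63 (0.72, limma adjusted p = 0.00749), a tetraspanin of late endosomes. The genes called lower were Lilrb4a (-1.97, 0.00454), an inhibitory receptor with a near-identical neighbour that its probe may not separate, Lyz2 (-0.70, 0.0115), the lysozyme of myeloid cells, Apoe (-0.68, 0.0103), the lipid carrier, and Ccl4 (-0.66, 0.0128), a chemokine. Neutrophils, monocytes and macrophages express Lyz2 and border macrophages express Apoe. The part of the marker signals above was not tested for these falls or for those of Lilrb4a and Ccl4. With sample 2 of B41HET left out, the number called among these 32 genes was 2, and with sample 1 left out it was 3. With the slide row as a block limma called 0, where 12 had an unadjusted p under 0.05.

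The receptor and adaptor through which the state is set did not pass the test. Trem2 had a fold change of 0.21 (SE 0.10, limma adjusted p = 0.286) and Tyrobp, which passes its signal on, one of 0.04 (0.8). Lpl, the lipoprotein lipase, stood at -0.08 (0.608) and Csf1, the growth factor of microglia, at 0.07 (0.697). Axl, a receptor for dying cells, had 0.15 (0.326) on its brightest probe and was called lower on a dimmer one (-1.25, 0.00366), so its probes disagreed. A p above the threshold does not show that these genes were equal.

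Homeostatic genes, which fall as microglia enter the state, were read from 15 genes, of which 1 was called lower, with a median of -0.05. The gene called lower was Fcrls (-0.76, limma adjusted p = 0.00581), a scavenger receptor of the Fc receptor family, which did not pass with the slide row as a block (0.0619). Among 16 regulators of the state, 1 was called lower, Tfe3 (-0.70, 0.0197), a transcription factor of lysosomal genes, and its dimmer probe did not pass (-0.30, 0.284). The Tfe3 call held in 2 of the 6 fits with a sample left out and was lost without sample 1, 2 or 3 of B41HET or sample 1 of B41KO (adjusted p up to 0.0822), and at 0.151 with the slide row as a block. Tfeb, a close relative of Tfe3, had -0.35 (0.138) on its brightest probe and -0.33 (0.16) on the next, and was called lower on its dimmest probe (-0.56, 0.0174). The count of regulators called was therefore 2 with the probe of lowest p, and it was 0 when each gene's probes were averaged. Mitf, another relative, had -0.09 (0.68) and Bhlhe40, the paralogue of Bhlhe41, had 0.09 (0.705).

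Partners of the members were read from 55 genes in 9 short lists, of which 1 was called higher and 5 were called lower, with a median of -0.02. The gene called higher was Lgals3bp (0.52, limma adjusted p = 0.0227), whose secreted product binds galectin-3. Its signals were 10.55, 10.63 and 10.45 in B41HET and 11.04, 11.10 and 11.04 in B41KO, without overlap. This call was lost when any of the 6 samples was left out (adjusted p of 0.0663 to 0.078), with normexp correction, and at 0.165 with the slide row as a block. The related galectin genes Lgals1 (0.06, 0.829) and Lgals9 (-0.26, 0.127) did not pass the test.

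Among the receptors of osteopontin, Cd44 was called lower, with signals of 7.56, 7.58 and 7.60 in B41HET and 6.47, 6.19 and 6.31 in B41KO (-1.26, limma adjusted p = 0.00413). CD44 is also carried by neutrophils and monocytes, whose markers were lower in the same samples, and their part was not tested. The integrin gene Itgav had 0.38 (0.132) and did not pass. Among the beta2 integrins, to which CD11c belongs, Itgal was called lower (-1.05, 0.00375). Their ligand Icam1 was called lower on its brightest probe (-0.58, 0.0442), while its other probe had 0.29 (0.111). The part of the lower neutrophil and monocyte markers was not tested for Itgal or Icam1 either. The Icam1 call was lost when any of the 6 samples was left out (0.0531 to 0.144), under the 75th percentile scaling and on the authors' processed values. Itgb2, the chain that pairs with CD11c, passed on p with a change under the fold threshold (-0.38, 0.0403), and Itgam, which encodes the sort marker CD11b, had -0.03 (0.855).

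Of the partners of Igf1, the binding protein gene Igfbp4 was called lower on both of its probes (-1.12 and -0.91, limma adjusted p of 0.00573 and 0.00476), with 0.0555 on the brighter probe when the slide row was a block, and the receptor gene Igf1r had -0.41 (0.0409), under the fold threshold. Of the Wnt coreceptors with which Dkk proteins interact, Lrp6 was called lower on its brightest probe (-0.65, 0.0115) but not on its other probe (-0.10, 0.716). That call was lost without sample 1 of B41HET (0.0525) and when the slide row was a block (0.103). Kremen1 had 0.40 (0.0697) on its brightest probe and -0.28 (0.262) and 0.18 (0.484) on the others, and did not pass. Downstream of Dectin-1, Syk had -0.20 (0.132) and Card9 had -0.02 (0.92). Ctsc, a protease that cystatin F inhibits, had -0.09 (0.59) on its brightest probe and 0.19 (0.35) and 0.18 (0.227) on the others. Beside Ank, Enpp1, which makes pyrophosphate outside the cell, had 0.04 (0.796) and the phosphate transporter gene Slc20a1 had -0.01 (0.957), and neither passed the test. Beside Fabp5, Fabp3 had 0.09 (0.633) and Fabp4 had 0.23 (0.407), and neither passed the test.

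**Figure D4:**
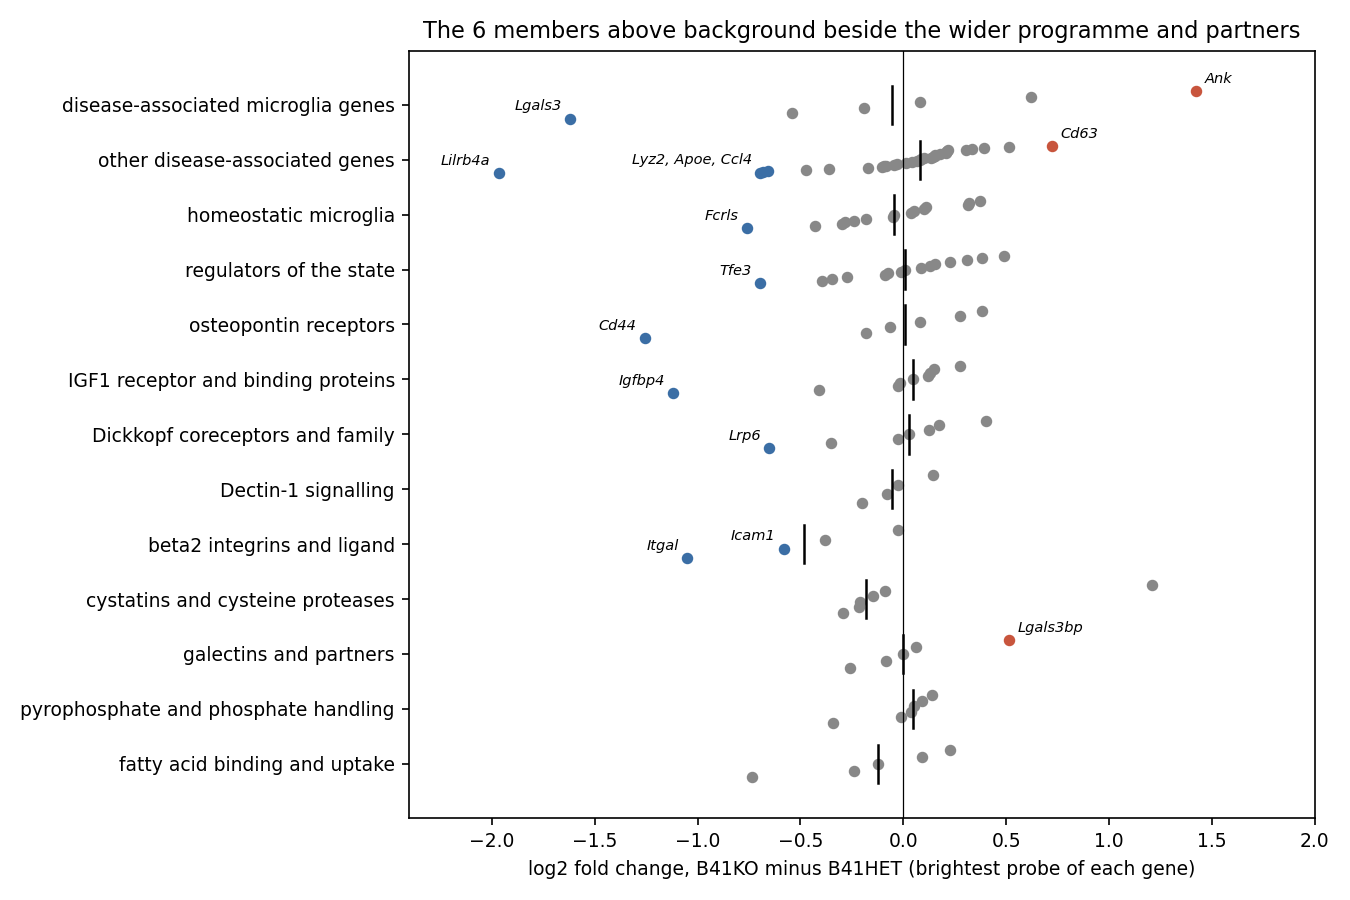
Log2 fold change (B41KO minus B41HET) of the brightest probe of each gene in the 10 disease-associated genes, the wider programme and the 9 partner lists. Genes not well above background on any array are left out. Blue is called lower, red is called higher and grey is not called, and vertical bars are medians over the genes plotted. Lgals3 and Ank lie at -1.62 and 1.42, and the medians of the disease-associated, homeostatic and regulator lists lie near 0.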

How the data were processed

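The authors deposited scanner output for 6 one-colour Agilent SurePrint G3 Mouse arrays, made with Feature Extraction 11.5.1.1, whose intensity values are background-subtracted and detrended but not normalized between arrays. The authors also deposited a table of processed values without stating its scale. Each of its columns ranked the probes like the matching array (Spearman 0.999999 to 1). These values, as deposited, were read as log2 and served as an alternative, since the fold change of Ank was 1.44 there and 1.42 from log2 scanner intensity.

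In the scanner output, control spots and the 95 to 136 outlier spots per array were left out. The log2 processed intensity was quantile normalized and spots of the same probe were averaged, giving 56605 probes, of which 70.1% to 75.5% per array were above background and 0 spots were saturated. Genotype was tested with limma 3.58.1 in R 4.3.3 on the 56601 probes with at least 2 values per genotype, with Benjamini-Hochberg adjustment over all of them. The code was tested on simulated data. Quantile normalization, limma and the call thresholds follow the study's methods. Figures used matplotlib 3.10.9 in Python 3.11.15.

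Probes were named by transcript accession through RefSeq on GRCm38.p6 (59.7% named), and others stayed unnamed. The array was designed on mm9, so no probe positions are given. The brightest probe stood for a gene. Named were all members, all called genes of each list (at most 3 per direction where over 6 were called), and partners, paralogues and state genes listed by name. Further probes are given for members and for named genes whose call differed between probes above background on all arrays. Most uncalled genes are given by their brightest probe, and other probes of some had the opposite sign. A gene of the homeostatic list is not reported here and was taken out of that list. The members and lists were chosen with earlier results of these data known, and the study's own gene selection drew on these samples. The methods describe pools of mice and the labels 3 mice per genotype, and this was not settled. The p-values measure the spread between the 3 samples per genotype, whether pools or single mice. An exact permutation test of 3 against 3 cannot go below p = 0.1. The number of arrays limits the precision. The alternatives were a 75th percentile shift, the authors' processed values, normexp with an offset of 50, a dim-probe filter (above background on 3 or more arrays), keeping outlier spots, trend and robust variance, blocking on the replicate number or on the slide row, omitting each sample, adjusted p alone, and other probe rules.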

Additional observations from a re-analysis of the deposited data

How the results depend on the processing

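Lgals3 and Ank were called on their brightest probe under 14 of 15 other settings, always in the same direction. One of the 14, the slide row as a block, rests on a single B41KO sample. Another, adjusted p alone, is the main fit without the fold threshold, so no call could be lost under it. The exception was the replicate block, with adjusted p of 0.057 and 0.0574. Replicate numbers did not pair the samples in every case (correlations of deviations between same-numbered samples 0.131, -0.00659 and 0.166), and 2 of the 3 numbers correlated best with their own. With the replicate block, 0 member probes, 0 member genes, 1 of the other disease-associated genes and 42 probes in all were called, against 3, 2, 5 and 2867. Under that block 7 member probes and 5 member genes had an unadjusted limma p under 0.05. With the filter on dim probes, 5 member probes and 4 member genes (Ank, Cst7, Igf1 and Lgals3) were called. Over all probes, normexp correction called 1500 and the slide row as a block 444, which also left 0 of the other disease-associated genes. Leaving out 1 sample in turn gave 796 to 1487 probes, 2 to 3 member probes, 2 member genes and 2 to 5 other disease-associated genes. The 75th percentile shift moved the share of calls that were higher from 34% to 45.8%. No called member changed sign under any setting. The causes were not tested. The 4 members at background limit what the arrays can show of Spp1, Gpnmb, Dkk2 and Fabp5.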
